A study of Mus musculus with 8 samples.

Results

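The genes described here are markers of cardiac macrophages, the resident phagocytes of heart muscle. Of 10 listed genes (Adgre1, Csf1r, Cd68, C1qa, C1qb, C1qc, Mrc1, Lyve1, Cd163 and Cx3cr1), 9 were matched by RefSeq transcript to 13 of the 39429 probes of the array, and no probe was matched to Cd68, which was not analysed here. RNA of mouse myocardium was hybridised to 1 Agilent 1-colour array per sample: 3 arrays labelled NPRA-/- and 5 labelled NPRA+/+, all from male mice with no treatment. NPRA, encoded by Npr1, is the natriuretic peptide receptor that makes cyclic GMP when it binds atrial or brain natriuretic peptide. The series title calls the deficiency cardiac-specific and the protocol names a floxed NprA allele (NprAflox/flox). No source used here gives the Cre driver, the age, or whether NPRA+/+ mice carry the floxed allele or Cre. The samples are called biological repetitions, with no animal named, and the spread behind each p-value is that between arrays, which may be technical.

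Macrophages of the mouse heart are kept by signalling of the growth factors CSF1 and IL-34 through the receptor encoded by Csf1r. Resident cells seeded before birth renew themselves and carry scavenger receptors such as LYVE1, CD163 and the mannose receptor (Mrc1), whereas CCR2+ cells are replaced from blood monocytes. Macrophages clear dying cells, make complement C1q and couple to conduction cells of the heart. In whole myocardium they are few among muscle, endothelial and stromal cells. A lower level of their RNA in such bulk tissue can come from fewer cells or from less RNA per cell, which cannot be told apart.

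Levels are given as log2 of the processed signal relative to the 75th percentile of the same array, so a level of 0 is the signal at that percentile. A change is the NPRA-/- mean minus the NPRA+/+ mean on this log2 scale. Levels of different probes are not comparable with each other, because probes bind with different efficiency. The summed level of a list is the log2 of the sum of its genes' unlogged levels, so its brightest probes weigh most. Between 79.5% and 92.6% of probes were well above background on an array, and the cardiomyocyte markers were above background on all arrays for 7 of 7 genes. The Npr1 probe was dim, at -6.42, -5.53 and -5.59 on NPRA-/- replicates 1, 2 and 3, against -4.77, -6.14, -6.55, -6.00 and -5.93 on NPRA+/+ replicates 1 to 5. These values overlap and the probe was well above background on 6 of 8 arrays, so it gave no check of the genotype labels, and no source says whether the deletion covers it. On the first principal component, which held 47.3% of the variance, NPRA-/- replicate 1 and NPRA+/+ replicate 1 stood apart from the other 6 arrays, and each was scanned on a day of its own. Scan day 1 was the only day with both genotypes (NPRA-/- replicates 2 and 3, and NPRA+/+ replicates 2 and 3). Slides were told apart by scan time alone, arrays of the same scan time being taken as 1 slide. By this rule the genotypes were on separate slides within that day, so slide and genotype cannot be told apart there. The median change over all 35329 probes tested was 0.21, and it was larger for dim probes: 0.63 where signal was lowest and 0.05 where it was highest, with probes ranked by mean signal into 5 groups of like signal. Members are therefore also set against these medians.

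No macrophage marker gene differed between NPRA-/- and NPRA+/+ myocardium by limma's test after Benjamini-Hochberg adjustment over all probes: 0 of 9 genes and 0 of 13 probes had an adjusted p under 0.05. Over all probes tested, 0.348% were called at that threshold, 0.32% as higher and 0.0283% as lower in NPRA-/-. These calls over all probes were not stable: under 16 of 23 alternatives no probe (0) was called, quantile normalization, the deposited series table and the slide and scan day blocks among them, and with a block by source name number 1 was higher and 21 were lower. The fitted change was positive for 8 genes and negative for C1qc, with a median of 0.16, against 0.21 for all probes and 0.16 with 1 probe a gene. Set against probes of like signal, 6 of 9 genes lay above the median, and under quantile normalization the members' median lay 0.11 above that of all probes. Without adjustment 1 of the 13 probes, a dim one for Csf1r, had a p under 0.05, where 19.7% of all probes did. No member probe separated all NPRA-/- from all NPRA+/+ arrays (0 of 13), where 15.4% of all probes did. By the brightest probe of each gene, the 95% intervals of all 9 genes covered 0. None of these intervals reached a change of 1 in either direction, the bounds lying between -0.74 and 0.97. Other probes went further: the second Cx3cr1 probe had a change of 0.50 with an interval of -0.27 to 1.27, which covers 1. The interval of the dim Csf1r probe, 0.02 to 0.68, left out 0.

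**Figure D1:**
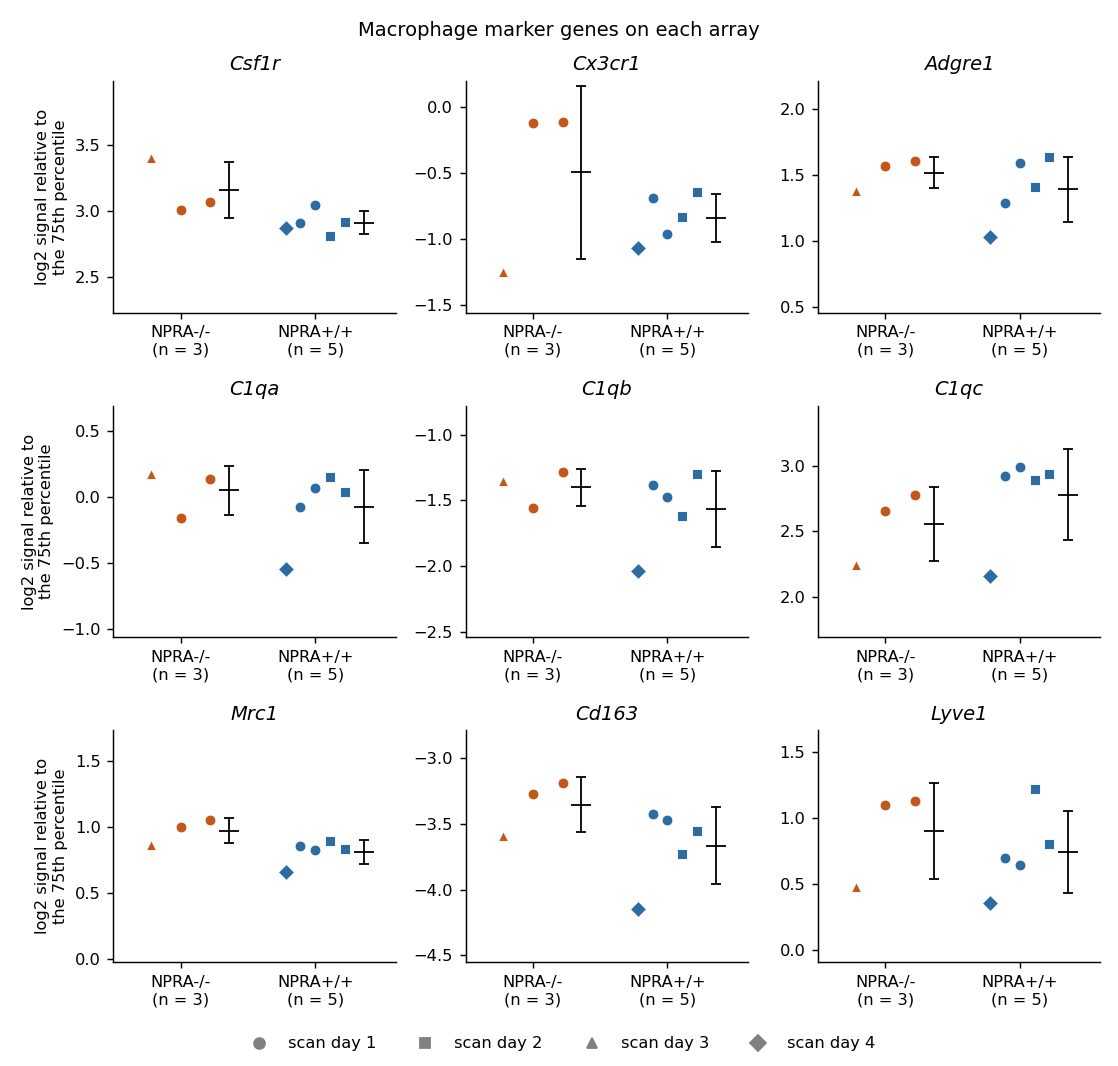
Level of each of the 9 macrophage marker genes on every array (y axis, log2 signal relative to the array's 75th percentile), with NPRA-/- arrays left of NPRA+/+ arrays in order of replicate number, the symbol giving the scan day and bars the group mean ± SD (n = 3 and n = 5). The groups overlap for every gene, NPRA+/+ replicate 1 (scan day 4) is the lowest array for 7 genes, and Cx3cr1 has NPRA-/- replicates 2 and 3 above and NPRA-/- replicate 1 below every NPRA+/+ array.

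Csf1r encodes the receptor tyrosine kinase for CSF1 and IL-34 on which most tissue macrophages depend for survival. Its brightest probe read 3.40, 3.00 and 3.07 on NPRA-/- replicates 1, 2 and 3, against 2.87, 2.91, 3.05, 2.81 and 2.92 on NPRA+/+ replicates 1 to 5. NPRA-/- replicate 1 was the highest array, and NPRA-/- replicate 2 lay below NPRA+/+ replicate 3, so the groups overlapped. The mean was 3.16 ± 0.21 in NPRA-/- and 2.91 ± 0.09 in NPRA+/+ (SD, n = 3 and n = 5). The change of 0.25 ± 0.14 (SE, 95% interval -0.06 to 0.56) did not pass limma's test (adjusted p = 0.356). The change exceeded the median of all probes by 0.04 and that of probes of like signal by 0.20. It was 0.13 without NPRA-/- replicate 1 and 0.06 within scan day 1. The other probes of Csf1r disagreed. A dim probe followed the brightest one over the 8 arrays (r = 0.96, exact permutation p = 0.00022, adjusted p over 5 probe pairs = 0.00112, Spearman rho 0.90, and r = 0.96 without the 2 arrays farthest from the median) and gave a change of 0.35 ± 0.14 (limma adjusted p = 0.232). Probes of signal like that dim probe had a median change of 0.40. The remaining probe ran the other way (r = -0.45 with the brightest), being highest on NPRA+/+ replicate 1 at -0.44 and lowest on NPRA-/- replicate 1 at -1.47, with a change of -0.05 ± 0.25 (limma adjusted p = 0.939). Over all arrays, then, the direction of the difference for Csf1r depended on the probe. The value of this remaining probe depended on the arrays and the scaling. It was 0.12 without NPRA+/+ replicate 1, 0.29 within scan day 1 and -0.17 under quantile normalization.

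Cx3cr1 encodes the receptor for the membrane-bound chemokine fractalkine (Cx3cl1), carried by resident macrophages of many tissues and by patrolling monocytes. It read -1.25, -0.12 and -0.11 on NPRA-/- replicates 1, 2 and 3, against -1.07, -0.69, -0.97, -0.84 and -0.64 on NPRA+/+ replicates 1 to 5. NPRA-/- replicates 2 and 3 were thus above all 5 NPRA+/+ arrays, and NPRA-/- replicate 1 was below all of them. Among the members' brightest probes it had the widest spread within NPRA-/-, with a mean of -0.49 ± 0.66 in NPRA-/- and -0.84 ± 0.18 in NPRA+/+ (SD, n = 3 and n = 5). Over all arrays the change was 0.35 ± 0.27 (SE, 95% interval -0.28 to 0.97), which did not pass limma's test (adjusted p = 0.532). The change exceeded the median of all probes by 0.14 and that of probes of like signal by 0.30. A second probe read -3.48, -2.40 and -2.20 on NPRA-/- replicates 1, 2 and 3, against -3.85, -2.88, -3.22, -2.97 and -3.03 on NPRA+/+ replicates 1 to 5. Both probes gave the same picture of NPRA-/- replicates 2 and 3 above every NPRA+/+ array, and they ran together over arrays (r = 0.93, exact permutation p = 0.00181, adjusted p over 5 probe pairs = 0.00453, rho 0.90, and r = 0.78 without the 2 arrays farthest from the median).

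Within scan day 1 Cx3cr1 was higher in NPRA-/- by 0.71 ± 0.13 (SE, limma adjusted p = 0.0384, 2 arrays a group). Its second probe had 0.75 ± 0.16 there, which did not pass (limma adjusted p = 0.0526). In that subset 16.9% of all probes tested had an adjusted p under 0.05, in place of 0.348%. With scan day as a block over all arrays the limma adjusted p was 0.0652 and the change the same. Without NPRA-/- replicate 1 and NPRA+/+ replicate 1, Cx3cr1 was higher in NPRA-/- by 0.67 ± 0.12 (limma adjusted p = 0.0310) and by 0.73 ± 0.13 on the second probe (adjusted p = 0.0306), where 11.7% of all probes were called. NPRA-/- replicate 1 alone decided much of this value: without it the change was 0.73 (limma adjusted p = 0.0921), and without NPRA-/- replicate 2 or replicate 3 it was 0.159 and 0.155. With slide as a random block over all arrays the change was 0.18 (limma adjusted p = 0.892), and 0.35 on the second probe (adjusted p = 0.814).

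Adgre1 encodes the adhesion G protein-coupled receptor whose antigen is used to mark mature mouse macrophages. It read 1.38, 1.57 and 1.61 on NPRA-/- replicates 1, 2 and 3, against 1.03, 1.29, 1.59, 1.41 and 1.64 on NPRA+/+ replicates 1 to 5. All NPRA-/- values fell inside the NPRA+/+ range. The means of 1.52 ± 0.12 in NPRA-/- and 1.39 ± 0.25 in NPRA+/+ differed by 0.13 ± 0.17 (SE, 95% interval -0.26 to 0.51, limma adjusted p = 0.730), which is 0.08 under the median of all probes and 0.08 above that of probes of like signal. Without NPRA+/+ replicate 1 it was 0.04. Its second probe gave 0.26 ± 0.15 (limma adjusted p = 0.387). The probes correlated at r = 0.61 (exact permutation p = 0.115, adjusted over 5 probe pairs 0.192, rho 0.57), and at -0.06 without NPRA+/+ replicates 1 and 2, so that relation rested on those arrays.

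**Figure D2:**
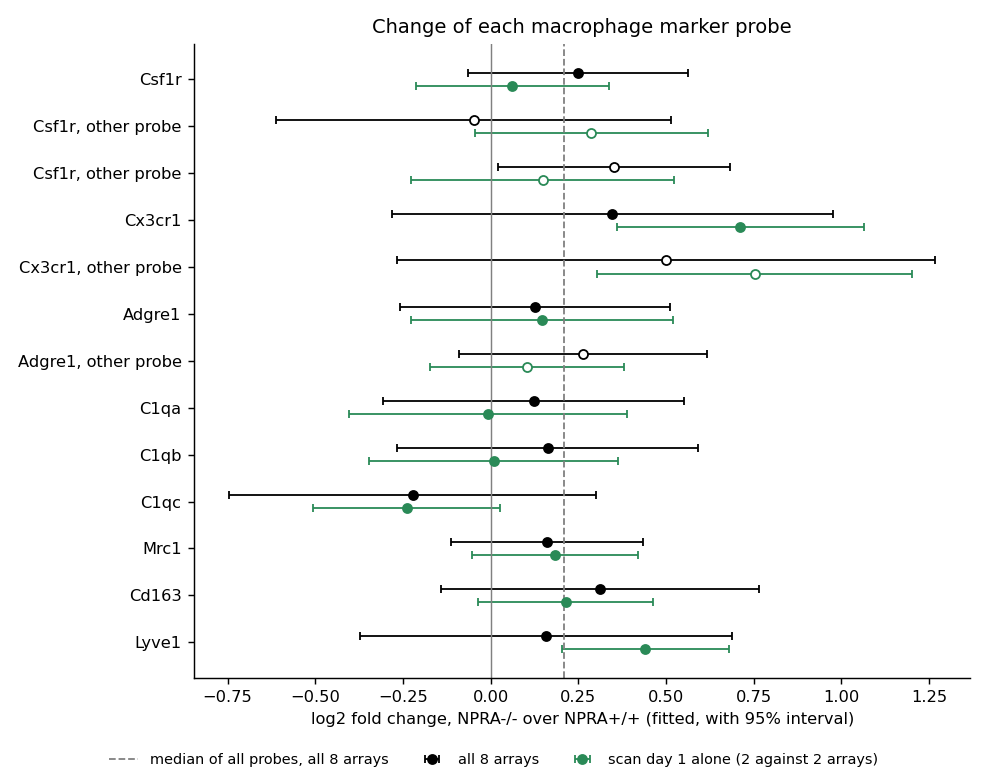
Fitted change of the 13 member probes (x axis, log2, NPRA-/- over NPRA+/+) with 95% intervals from limma, over all 8 arrays (black) and within scan day 1 alone (green), filled for the brightest probe of a gene and open for its other probes, with the median of all probes (0.21) as a dashed line. Over all arrays 1 interval leaves out 0, that of a dim Csf1r probe, and within scan day 1 Cx3cr1 lies at 0.71 and Lyve1 at 0.44.

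C1qa, C1qb and C1qc encode the A, B and C chains that assemble into C1q, the recognition part of the first complement complex, and tissue macrophages are their main source. The 3 genes are known to lie side by side in mouse and to be expressed together. Promoter windows of RefSeq (build GRCm38.p6, 250 bases before to 50 after the gene's start, gene strand, 5′ to 3′) were listed for C1qb at chr4:136886151-136886450 on the minus strand and C1qc at chr4:136892865-136893164 on the minus strand. They are shown because the fitted changes of the C1q genes had unlike signs here, a difference that was not tested. Mrc1, at chr2:14229164-14229463 on the plus strand, stands beside them as a scavenger receptor gene. Cd163, another such gene, also had a listed window, which is not printed. Capitals mark GAGGAA, a core of sites of the macrophage transcription factor PU.1, read on either strand (TTCCTC on the opposite one).
C1qb promoter: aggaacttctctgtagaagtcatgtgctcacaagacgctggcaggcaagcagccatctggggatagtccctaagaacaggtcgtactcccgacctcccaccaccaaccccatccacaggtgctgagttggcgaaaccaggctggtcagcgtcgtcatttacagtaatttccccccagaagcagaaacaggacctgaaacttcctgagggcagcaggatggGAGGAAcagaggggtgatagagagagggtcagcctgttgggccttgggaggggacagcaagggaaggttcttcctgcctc
C1qc promoter: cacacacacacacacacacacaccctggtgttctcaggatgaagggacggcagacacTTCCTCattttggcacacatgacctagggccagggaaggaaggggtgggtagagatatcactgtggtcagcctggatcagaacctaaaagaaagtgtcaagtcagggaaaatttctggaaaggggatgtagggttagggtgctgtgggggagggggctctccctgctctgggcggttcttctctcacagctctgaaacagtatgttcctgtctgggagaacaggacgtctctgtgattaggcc
Mrc1 promoter: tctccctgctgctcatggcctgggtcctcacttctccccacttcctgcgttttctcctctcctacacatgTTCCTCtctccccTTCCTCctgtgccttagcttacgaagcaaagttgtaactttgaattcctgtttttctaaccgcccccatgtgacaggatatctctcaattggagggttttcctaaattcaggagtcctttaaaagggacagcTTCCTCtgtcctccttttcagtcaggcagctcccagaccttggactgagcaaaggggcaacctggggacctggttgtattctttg
GAGGAA occurred 1 time in the C1qb window, 1 time in that of C1qc and 3 times in that of Mrc1, and at least 1 time in 28.3% of all 32851 promoter windows of this length. The longer GAGGAAGT, which contains GAGGAA, occurred in the C1qc window (on the opposite strand) and in 3.2% of all windows. In the windows of Cd163 and Cx3cr1 these letters did not occur (0 times each). These matches are letters in a window and no measurement of binding.

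C1qc read 2.24, 2.65 and 2.78 on NPRA-/- replicates 1, 2 and 3, against 2.16, 2.92, 2.99, 2.89 and 2.94 on NPRA+/+ replicates 1 to 5. All 3 NPRA-/- arrays were below NPRA+/+ replicates 2 to 5, and NPRA+/+ replicate 1 was the lowest of all, so the groups overlapped. The means were 2.56 ± 0.28 in NPRA-/- and 2.78 ± 0.35 in NPRA+/+ (SD, n = 3 and n = 5). The change of -0.22 ± 0.23 (SE, 95% interval -0.74 to 0.30) did not pass limma's test (adjusted p = 0.642). It was the only negative value among the 9 genes, 0.43 under the median of all probes and 0.27 under that of probes of like signal. It stayed negative under all 23 alternative settings and leave-outs, between -0.51 and -0.06, with adjusted p between 0.144 and 0.937. The smallest of these came without NPRA+/+ replicate 1, where the change was -0.38, and the value nearest 0 without NPRA-/- replicate 1. Within scan day 1 it was -0.24 with both NPRA-/- arrays below both NPRA+/+ arrays (limma adjusted p = 0.170). This probe is printed 10 times on an array, of which 9 were kept on NPRA-/- replicate 1, and its spots had an SD of 0.05 to 0.09 within an array, less than the SD between arrays of either genotype.

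C1qa read 0.17, -0.16 and 0.14 on NPRA-/- replicates 1, 2 and 3, against -0.54, -0.08, 0.07, 0.16 and 0.04 on NPRA+/+ replicates 1 to 5. Its change was 0.12 ± 0.19 (SE, 95% interval -0.31 to 0.55, limma adjusted p = 0.770), and it was -0.01 within scan day 1. Leaving out NPRA+/+ replicate 1 gave 0.0049, and leaving out NPRA-/- replicate 2 gave 0.23. C1qb read -1.36, -1.56 and -1.29 on NPRA-/- replicates 1, 2 and 3, against -2.03, -1.39, -1.47, -1.62 and -1.30 on NPRA+/+ replicates 1 to 5. For both genes the lowest array was NPRA+/+ replicate 1 and the rest of the values intermingled. The change of C1qb was 0.16 ± 0.19 (95% interval -0.27 to 0.59, limma adjusted p = 0.684), and it was 0.01 within scan day 1, 0.04 without NPRA+/+ replicate 1 and 0.03 under quantile normalization. The C1q genes therefore did not pass the test in either direction, and whether C1qc differs from C1qa and C1qb was not tested.

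Mrc1 encodes the mannose receptor CD206, a lectin for endocytosis of glycoproteins that marks resident macrophages. It read 0.87, 1.00 and 1.05 on NPRA-/- replicates 1, 2 and 3, against 0.66, 0.86, 0.83, 0.89 and 0.83 on NPRA+/+ replicates 1 to 5. NPRA-/- replicates 2 and 3 were above all NPRA+/+ arrays, and NPRA-/- replicate 1 was below NPRA+/+ replicate 4. The means were 0.98 ± 0.10 in NPRA-/- and 0.81 ± 0.09 in NPRA+/+ (SD, n = 3 and n = 5), the tightest within NPRA-/- of the 9 genes. The change of 0.16 ± 0.12 (SE, 95% interval -0.11 to 0.43, limma adjusted p = 0.502) did not pass, and was 0.05 under the median of all probes and 0.11 above that of probes of like signal.

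Cd163 encodes the scavenger receptor for haemoglobin bound to haptoglobin. It was dim, at -3.59, -3.28 and -3.19 on NPRA-/- replicates 1, 2 and 3, against -4.15, -3.42, -3.47, -3.73 and -3.56 on NPRA+/+ replicates 1 to 5. NPRA-/- replicates 2 and 3 were again above every NPRA+/+ array, with NPRA-/- replicate 1 inside the NPRA+/+ range. The means of -3.35 ± 0.21 in NPRA-/- and -3.67 ± 0.29 in NPRA+/+ gave a change of 0.31 ± 0.20 (SE, 95% interval -0.14 to 0.77, limma adjusted p = 0.427). Probes of like signal had a median change of 0.40, and under quantile normalization the value for Cd163 turned to -0.05. Without NPRA+/+ replicate 1 it was 0.19.

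Lyve1 encodes a hyaluronan receptor shared by resident cardiac macrophages and lymphatic endothelium. It read 0.48, 1.097 and 1.13 on NPRA-/- replicates 1, 2 and 3, against 0.35, 0.70, 0.64, 1.22 and 0.80 on NPRA+/+ replicates 1 to 5. The highest array was NPRA+/+ replicate 4 and the lowest NPRA+/+ replicate 1, so the NPRA-/- values lay inside the NPRA+/+ range. The means of 0.90 ± 0.37 in NPRA-/- and 0.74 ± 0.31 in NPRA+/+ gave a change of 0.16 ± 0.23 (SE, 95% interval -0.37 to 0.69, limma adjusted p = 0.759). Single arrays moved it: it was 0.37 without NPRA-/- replicate 1, 0.06 without NPRA-/- replicate 2, 0.05 without NPRA-/- replicate 3, 0.06 without NPRA+/+ replicate 1 and 0.28 without NPRA+/+ replicate 4. With slide as a random block it was 0.05, and with a block by source name number 0.02. Within scan day 1 Lyve1 was higher in NPRA-/- by 0.44 ± 0.09 (limma adjusted p = 0.0444, 2 arrays a group, where 16.9% of all probes were called). With scan day as a block the same change had a limma adjusted p of 0.169, and without both arrays that stood apart the change was 0.27 (adjusted p = 0.366). Lymphatic markers were measured beside it: 0 of 6 genes passed, their summed level was 0.29 to 0.96 on NPRA-/- and 0.18 to 0.65 on NPRA+/+ arrays, and 5 of 6 were well above background on all arrays. Their part in the Lyve1 values was not tested.

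Set against one another over the 8 arrays, most members ran together, and 1 array carried most of this. NPRA+/+ replicate 1 was the lowest array for 7 of 9 members, the exceptions being Cx3cr1 (lowest on NPRA-/- replicate 1) and Csf1r (lowest on NPRA+/+ replicate 4). It was the lowest array for 31.2% of all genes tested, also 7 of 9 members after quantile normalization (34.9% of genes) and in the authors' deposited series table (34.2%). The median deviation of the 9 members from their own means was -0.45 there. It was -0.05, 0.13 and 0.18 on NPRA-/- replicates 1, 2 and 3, against -0.02, 0.04, -0.03 and 0.06 on NPRA+/+ replicates 2 to 5. On NPRA-/- replicate 3 no member was below its mean, and on NPRA+/+ replicate 1 all 9 were. Without NPRA+/+ replicate 1, limma called 0 of 9 members, where 11.6% of all probes were called.

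**Figure D3:**
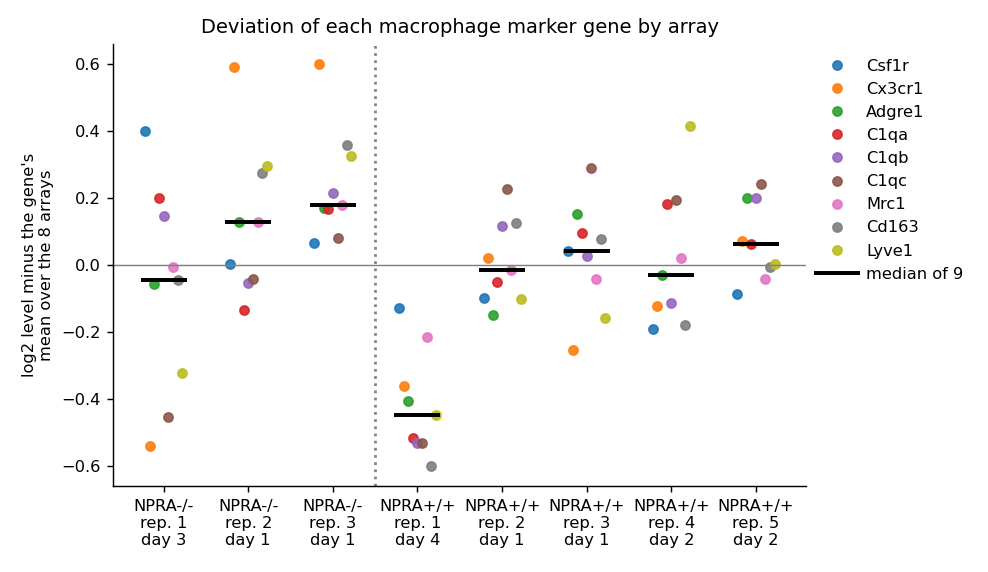
Deviation of each of the 9 genes from its own mean over the 8 arrays (y axis, log2), by array and scan day, NPRA-/- arrays left of NPRA+/+ arrays, with black lines for the median of the 9 genes. The median is -0.45 on NPRA+/+ replicate 1 and between -0.05 and 0.18 on the other arrays.

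Of the 36 pairs of members, 33 had a positive Pearson r, with a median of 0.56 and a range of -0.42 (Csf1r with C1qc) to 0.89 (Mrc1 with Cd163). Without adjustment 9 pairs had an exact two-sided permutation p under 0.05, and after Benjamini-Hochberg adjustment over the 36 pairs none did, the smallest adjusted p being 0.169 for Pearson's r and 0.544 for Spearman's rho. The mean r was 0.48, and 0.45 with genotype means removed, where the mean over all pairs of 16430 genes above background on all arrays was 0.07. Without NPRA+/+ replicate 1 the mean r of the members fell to 0.11. Without both arrays that stood apart it was 0.13, with 24 of 36 pairs positive. The common movement of the markers thus rested on NPRA+/+ replicate 1. Markers of other cells also moved on the arrays that stood apart: the summed cardiomyocyte level was 10.59 on NPRA-/- replicate 1 and 10.27 on NPRA+/+ replicate 1, against 8.205 to 9.18 on the other 6 arrays. The summed level of T and NK cell markers was 1.46 and 1.83 on the same arrays, with -0.27 to 0.47 on the other 6. Their part in the members' levels was not tested.

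Among the scavenger receptors, Mrc1 and Lyve1 had r = 0.80 (rho 0.76, exact permutation p = 0.0131, adjusted p = 0.169) and r = 0.62 without the 2 arrays farthest from the median of Mrc1. Mrc1 with Cx3cr1 had r = 0.77 over all arrays (exact permutation, adjusted p = 0.169), 0.73 there with genotype means removed, and 0.90 without both replicates 1. Cd163 with Cx3cr1 had 0.72 (adjusted p = 0.169), 0.64 and 0.81 in that order. Genotype means were not removed for the values without both replicates 1, where both NPRA-/- arrays were above all NPRA+/+ arrays for Mrc1, Cd163 and Cx3cr1. C1qa and C1qb had r = 0.82 (rho 0.43, exact permutation p = 0.0389, adjusted p = 0.169), which became -0.19 without NPRA-/- replicate 2 and NPRA+/+ replicate 1, so it rested on those arrays. The sign of r between C1qc and the receptors depended on the arrays. Over all arrays r was 0.39 to Mrc1, 0.41 to Cx3cr1, 0.57 to Lyve1 and 0.55 to Cd163, and with genotype means removed 0.94, 0.67, 0.73 and 0.95 in that order. Over the 6 arrays without both replicates 1, genotype means not removed, it was -0.87, -0.90, -0.68 and -0.62, and there both NPRA-/- arrays were lower for C1qc and, but for Lyve1 on NPRA+/+ replicate 4, higher for the receptors than the NPRA+/+ arrays. The 3 negative values over all arrays were those of Csf1r with C1qc (-0.42), Lyve1 (-0.31) and Cx3cr1 (-0.23).

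**Figure D4:**
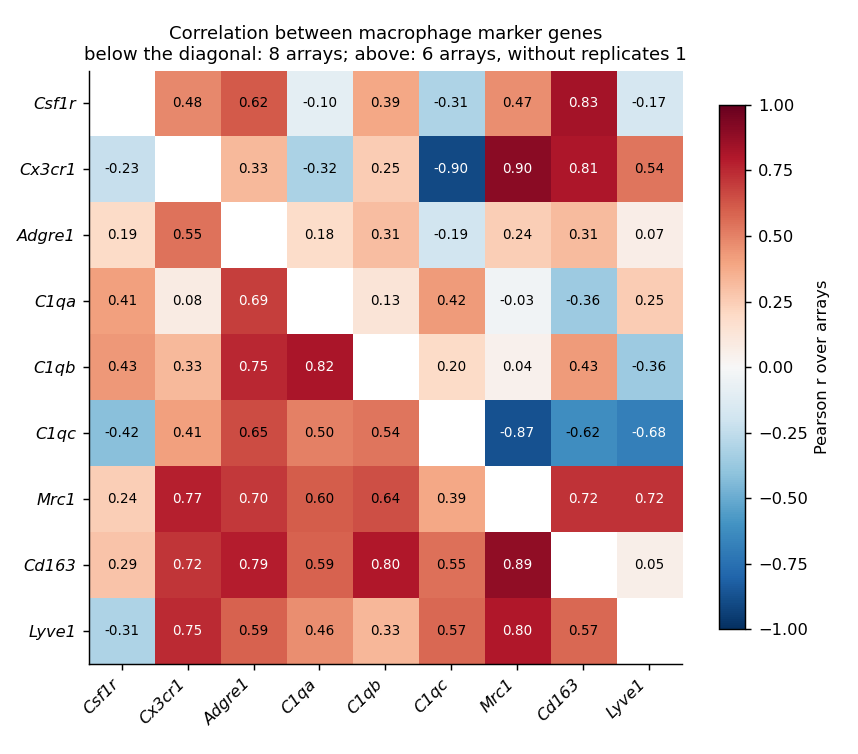
Pearson r of each pair of members, over all 8 arrays below the diagonal and, above it, over the 6 arrays without NPRA-/- replicate 1 and NPRA+/+ replicate 1. Of 36 pairs, 33 are positive over all arrays and 24 over the 6 arrays, where C1qc has values down to -0.90.

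The share of probes well above background, a measure of array quality, was 83.7%, 92.6% and 92.1% on NPRA-/- replicates 1, 2 and 3, against 79.5%, 81.3%, 88.8%, 80.6% and 83.9% on NPRA+/+ replicates 1 to 5. Cd163 had r = 0.80 with it (rho 0.83, exact permutation p = 0.00895, adjusted over 9 genes 0.0806), Mrc1 0.76 (rho 0.52, adjusted p = 0.0906) and Adgre1 0.73 (rho 0.71, adjusted p = 0.110). None of the 9 passed adjustment. Without NPRA-/- replicates 2 and 3, r was 0.61 for Cd163, 0.75 for Adgre1 and 0.31 for Mrc1, so the Mrc1 relation rested in part on those arrays. For Cx3cr1 r was 0.72 (rho 0.64, exact permutation p = 0.0511) and -0.08 without NPRA-/- replicates 2 and 3, the arrays with the highest share, so that relation rested on them. The part of array quality in the members' levels was not tested.

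Among the genes whose levels over the 8 arrays were most like the mean of the members, of 15519 genes above background on all arrays (members, clone names and predicted genes left out), were Scpep1 (r = 0.98), P2ry13 (0.97), Vat1 (0.97) and Olfr770 (0.97). P2ry13 encodes a receptor for ADP, and Scpep1 a serine carboxypeptidase. Without NPRA+/+ replicate 1 these 4 had r of 0.89 to 0.91 with the members' mean. These r describe a ranking over many genes and carry no test.

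The wider macrophage programme was read from 6 lists of 119 genes, of which 116 were tested and 0 had an adjusted p under 0.05 by limma. Without adjustment 13 were higher and 1 lower at p under 0.05, together 12.1%, where 17.4% of all genes were (1 probe a gene). The median change of these genes was 0.19, that of all genes 0.16. Of 16 growth factor and lineage genes, 2 were higher without adjustment: Fgr, a Src-family kinase of myeloid cells (0.57 ± 0.16, limma adjusted p = 0.113), and Il34, the second ligand of the Csf1r receptor (0.41 ± 0.12, adjusted p = 0.115). Il34 read -2.29, -2.53 and -2.52 on NPRA-/- replicates 1, 2 and 3, and between -2.89 and -2.81 on the NPRA+/+ arrays, without overlap, as for 15.4% of all probes. Its fellow ligand gene Csf1 had a change of -0.08 ± 0.18, and Cx3cl1, the ligand of the Cx3cr1 receptor, one of 0.46 ± 0.23 (limma adjusted p = 0.320). Both were picked as ligands of members after their values were seen. The brightest genes of this list, Cebpb (0.09 ± 0.13) and Csf2ra (-0.03 ± 0.17), did not pass.

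Among 19 complement partners of C1q, 3 were higher without adjustment, where 17.4% of all genes had an unadjusted p under 0.05. The median change of these partners was 0.24. C2, the protease that C1 cleaves to form the C3 convertase, was at -1.67, -1.84 and -1.69 on NPRA-/- replicates 1, 2 and 3, and between -3.03 and -2.18 on NPRA+/+ arrays. It had a change of 0.90 ± 0.19 (limma adjusted p = 0.0757), the smallest adjusted p of the 116 genes. C3ar1, the receptor for the C3a fragment, had 0.58 ± 0.14 (limma adjusted p = 0.0856). Both genes separated the genotypes without overlap, as 15.4% of all probes did, and neither passed. C3, among the brightest partners and the source of the C3a fragment, had 0.24 ± 0.19 (limma adjusted p = 0.536).

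Of 30 genes of resident macrophages, scavenging and uptake of dying cells, 2 were higher without adjustment, with a median change of 0.14: Marco, a scavenger receptor for bacteria and particles (1.02 ± 0.36, limma adjusted p = 0.174), and Siglec1, a sialic acid lectin (0.74 ± 0.30, adjusted p = 0.225). The brightest of them, Cd36 and Apoe, had 0.07 ± 0.13 and -0.05 ± 0.21. Timd4 and Folr2, markers of self-renewing resident macrophages that were picked after their values were seen, had -0.10 ± 0.25 and 0.07 ± 0.17. Of 16 monocyte and recruitment genes, 2 were higher without adjustment (Chil3 among them, 0.61 ± 0.22). This count and that of the 30 genes above stand against 17.4% of all genes with an unadjusted p under 0.05. Ccr2, the receptor that brings monocytes to tissue, also picked after its values were seen, had 0.11 ± 0.27. Its values of -2.51, -1.78 and -1.89 on NPRA-/- replicates 1, 2 and 3 overlapped those of NPRA+/+, from -2.72 to -1.78.

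Of 15 genes of antigen presentation and dendritic cells, 2 were higher without adjustment: Clec9a, a dendritic cell receptor for exposed actin (0.89 ± 0.20, limma adjusted p = 0.0825), and Cd209a (1.00 ± 0.38, adjusted p = 0.195). The class II genes H2-Ab1 and H2-Eb1 had 0.15 ± 0.17 and 0.17 ± 0.15, with H2-Eb1 missing on NPRA+/+ replicates 4 and 5 because of spot flags and fitted without them. Of 20 genes for lysosome, oxidase and Fc receptors of phagocytes, 2 were higher and 1 lower without adjustment. These counts and that of the 15 genes above stand against 17.4% of all genes with an unadjusted p under 0.05. The lower phagocyte gene was Cd300a, an inhibitory receptor of myeloid cells, at -1.12, -0.40 and -0.54 on NPRA-/- replicates 1, 2 and 3, against 0.62, 0.17, -0.04, 0.54 and 0.82 on NPRA+/+ replicates 1 to 5. All 3 NPRA-/- arrays were below all NPRA+/+ arrays, a lack of overlap that 15.4% of all probes showed, with a change of -1.11 ± 0.25 (limma adjusted p = 0.0802). Ncf4, a subunit of the phagocyte oxidase, had 0.54 ± 0.20, and the bright lysosomal genes Lamp1 and Ctsb had 0.24 ± 0.14 and 0.22 ± 0.15.

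**Figure D5:**
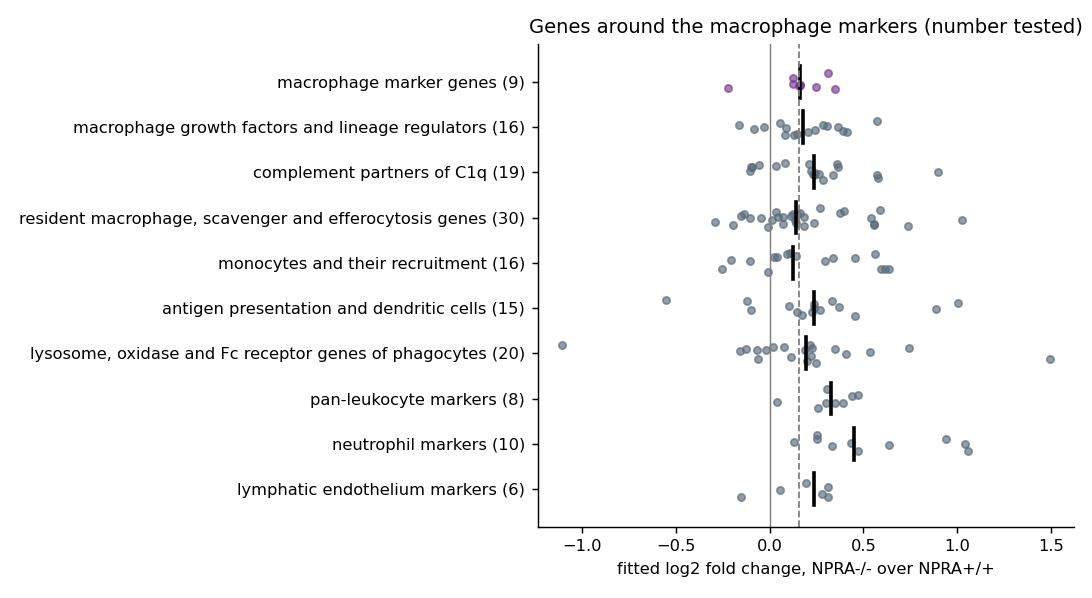
Fitted change (x axis, log2, NPRA-/- over NPRA+/+) of every tested gene of the members, the 6 macrophage lists and 3 marker lists of other cells, 1 point a gene, with a black bar for the median of each list and a dashed line for that of all genes (0.16). The medians lie between 0.12 (monocytes) and 0.45 (neutrophils), that of the members at 0.16.

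Marker lists of other cell types were read in the same fit. Genes shared by all leukocytes had a positive change in 8 of 8 cases, a share that was not counted over all genes. Their median change was 0.33, against 0.16 for all genes, with 0 of 8 called. Of these 8 genes, 3 were higher without adjustment, where 17.4% of all genes had an unadjusted p under 0.05. The summed level of this list was 2.47 to 2.57 on NPRA-/- arrays and 1.93 to 2.61 on NPRA+/+ arrays. In it Laptm5 (0.35 ± 0.12, limma adjusted p = 0.166) and Ptprc (0.44 ± 0.17, adjusted p = 0.213) had the smallest p. Of 10 neutrophil genes, 3 were higher without adjustment, where 17.4% of all genes had an unadjusted p under 0.05, and 6 of the 10 were in the 2 dimmest signal groups, whose median changes were 0.63 and 0.40. S100a9 was among the 3, with a change of 1.04 ± 0.20 (limma adjusted p = 0.0693), as was S100a8 (1.06 ± 0.26, adjusted p = 0.0935), and 0 were called. Their summed level was 5.28 to 5.56 on NPRA-/- and 5.02 to 5.49 on NPRA+/+ arrays. The mesothelium list had a median change of 2.17, with 4 of 6 genes higher without adjustment, against the same 17.4% of all genes. Only 3 of the 6 were well above background on all arrays. In that list 1 gene was called, Msln, by 2.48 ± 0.36 (limma adjusted p = 0.0498, where 0.348% of all probes were called). Msln had a change of 1.61 to 2.75 under the 23 alternatives and passed in 5 of them, with limma adjusted p between 0.0203 and 0.451. The summed level of the mesothelium list was 0.25 to 0.81 on NPRA-/- arrays and -0.54 to -0.0036 on NPRA+/+ arrays, without overlap, where 15.4% of single probes had none. The lists of T and NK cells, B cells, mast cells, fibroblasts, cardiomyocytes, erythroid cells, adipocytes, blood endothelium and lymphatic endothelium had 0 called, with medians of 0.54, 0.10, 0.21, 0.33, 0.65, -0.01, 0.26, 0.08 and 0.24 in that order. The part of other leukocytes and of surface mesothelium in the members' values was not tested.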

How the data were processed

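RNA of myocardium was measured on 8 Agilent 1-colour arrays (3 NPRA-/-, 5 NPRA+/+). Per the labels' protocols total RNA was amplified and labelled with Cy3. Agilent Feature Extraction (version 11.0.1.1 in the submitters' processing notes) gave the spot intensity values, per the file headers, and the processed signal is background-subtracted within its array. Flags scored 0 or 1 per spot come from the same deposited files. The deposited series table holds log2 values, whose normalization no source used here gives.

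Control spots and outlier-flagged spots were left out, log2 processed signal was taken relative to each array's 75th percentile, and spots of a probe were averaged. Probes well above background on at least 3 of 8 arrays were tested (35329, with 4100 not kept), by limma 3.58.1 in R 4.3.3 (lmFit, eBayes, no block), with Benjamini-Hochberg adjustment over all of them and a threshold of 0.05. The brightest probe stood for a gene. The RefSeq table (GRCm38.p6) gave 27242 of 39429 probes a symbol and 12187 none. Correlations used exact permutation over array pairings (scipy 1.17.1 in Python 3.11.15). No probe was saturated. With 8 arrays, their number limits precision.

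The members and lists were chosen with earlier results of these data known. Named genes are all members, the 2 brightest and the 2 of smallest p of each macrophage list, up to 2 of smallest p of each marker list with any past the threshold, and the 5 genes most like the members' mean. Some genes that this rule names are not reported here. Arrays with the same repetition number deviated together (r of 0.63, 0.28 and 0.36 for numbers 1, 2 and 3). NPRA-/- replicate 1 had r of -0.37 to -0.17 with NPRA+/+ replicates 2 to 5. For NPRA-/- replicates 2 and 3, some arrays of other numbers came near (0.33 for NPRA-/- replicate 3 with NPRA+/+ replicate 2, and 0.25 for NPRA-/- replicate 2 with NPRA+/+ replicate 3, all of scan day 1). With NPRA+/+ replicate 1 they had -0.45 and -0.60. The source names give NPRA+/+ replicates 1, 2 and 3 the same number, and whether they share an animal is not stated. With NPRA+/+ arrays of one source name number averaged, 0 members were called and their median change was 0.12. Alternatives covered scaling, background (normexp, offset 50), filter, probe choice, variance model, the deposited table, blocks by replicate, scan day and slide, and arrays left out. The script was checked on simulated data.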

Additional observations from a re-analysis of the deposited data

Results flagged for a closer look

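Of 13 member probes looked at, 3 had 1 array far from the rest of its genotype, judged by its gap to the nearest array over the range of the 5 NPRA+/+ arrays against Dixon's 95% critical value. Chance flags about 1 in 20 groups. All 3 concern NPRA+/+ replicate 1, which also stood apart over all probes. It was lowest for C1qc, at 2.16, with the other NPRA+/+ arrays between 2.89 and 2.99, and lowest for Mrc1, at 0.66, with the others between 0.83 and 0.89. It was highest on the probe of Csf1r that ran against the brightest one, at -0.44, with the other NPRA+/+ arrays between -1.42 and -1.21. Without NPRA+/+ replicate 1 no member was called (0 of 9), where 11.6% of all probes were.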

How the results depend on the processing

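Across 23 alternatives, 0 of 9 members were called under 21. Within scan day 1 alone 2 were called (Cx3cr1, 0.71, and Lyve1, 0.44), where 16.9% of all probes were. Without both arrays that stood apart 1 was (Cx3cr1, 0.67), where 11.7% of all probes were. These member calls were all higher in NPRA-/-. The median change of the members was 0.16 and turned to -0.13 with scaling to the median of each array, where the median of all probes also fell below 0 (to -0.08). That scaling moved all probes down together by the same amount, so values relative to all probes stayed the same to 2 decimals, and with it 6 genes turned: Adgre1 to -0.16, Csf1r to -0.0412, C1qa to -0.17, C1qb to -0.13, Mrc1 to -0.13 and Lyve1 to -0.13. C1qa was -0.0062 with scan day as a block and within scan day 1, and -0.0558 without both arrays apart. Cd163 was -0.0455 under quantile normalization, -0.0075 after normexp and -0.0378 in the deposited series table. The cause of the turns of C1qa other than under median scaling, and of Cd163, was not tested. Over all probes, 123 were called, and 0 under 16 of the alternatives, with 193 without the filter, 3 for probes above background on all arrays, 185 with a gene's probes averaged and 22 with a block by source name number. The number was 5979 within scan day 1 alone, 4134 without both arrays apart and 4088 without NPRA+/+ replicate 1. Leaving out 1 array at a time gave 0 members called each time and a median change of 0.06 to 0.20. With a replicate block by repetition number 0 members were called and the median was 0.23, and with one by source name number 0 and 0.13, so the block changed no call. The mean r between members was 0.48, ran from 0.11 (without NPRA+/+ replicate 1) to 0.62 with 1 array left out, and was 0.13 without both arrays apart. It was not computed within scan day 1, which has 4 arrays. All 13 probes were well above background on 8 of 8 arrays. Dim probes still depended on background and scaling. Besides Cd163, the dim Csf1r probe went from 0.35 to -0.05 under quantile normalization and after normexp.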
